A study of Mus musculus with 9 samples.

Results

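42 genes of the synapse were followed in the cortex of mouse embryos carrying a mutant Cyfip2 gene. They were taken from a list of presynaptic, adhesion and postsynaptic scaffold genes by gene symbol. All 42 are present among the 18820 genes of the deposited table, and all 42 lie among the 15069 genes that were tested, whose mean reached 10 or more. They comprise 8 genes of synaptic vesicles and their transmitter transporters, 6 of the fusion machinery, 6 of the active zone, 5 adhesion genes, 15 postsynaptic scaffold genes and 2 genes of the kinase CaMKII. The embryos were of the strain C57BL/6J at embryonic day 18.5, in 3 groups of 3 libraries: wild type (WT), Cyfip2 heterozygote (Het) and Cyfip2 knockout (KO). The labels describe neither the mutant allele nor the sex of the embryos. Nothing in them says that each library is a different embryo, and the p-values given therefore measure only the spread among these libraries, which may be technical. Within Het and within KO the Y-linked gene Ddx3y was at 0 in some libraries only, so neither group came from a single embryo.

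A chemical synapse forms where a presynaptic terminal, filled with vesicles of transmitter, meets a postsynaptic membrane. Synapsins tether vesicles, active zone proteins dock and prime them, and the SNARE proteins with synaptotagmin and complexin fuse them when calcium enters. Neurexins on the presynaptic side bind neuroligins on the postsynaptic side, and behind the receptors a scaffold of DLG, DLGAP, SHANK and HOMER proteins links them to signalling and to actin. In the rodent cortex most synapses form after birth, so embryonic expression of these genes precedes most synapse formation. Cyfip2 encodes a subunit of the WAVE complex, which controls branched actin.

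Cyfip2 itself had normalized counts (gene counts divided by a size factor for each library) of 10169, 10344 and 11174 in WT, 8969, 9779 and 9882 in Het, and 7900, 7522 and 8255 in KO. The groups did not overlap and were in the order of the labels. Approximate depth ran from 29.5 to 54.5 M reads per library. 3 features of the libraries touch the results that follow. Cdhr1, a marker of olfactory bulb neurons, lay between 2138 and 3436 in WT replicate 3, Het replicate 1 and KO replicates 1 and 2, and between 21.8 and 53.1 in the other 5 libraries. Tbx21, Th, Sp8 and Barhl2, of the same marker list, divided the libraries likewise. Doc2g (610 to 745), Kcng1 (927 to 1142), Lhx2, Eomes and Slc6a3, also of that list, did not. The Y-linked gene Ddx3y was listed at 0 in Het replicate 1 and KO replicates 1 and 2, and lay between 1394 and 1674 in the rest. The same 3 libraries were highest in the median of the striatal markers, though not in every marker. The median log2 difference of 12 such genes from the WT mean was 1.06 in Het replicate 1. It was 1.00 and 1.29 in KO replicates 1 and 2, against -0.61 to 0.17 elsewhere. Isl1, a gene of striatal neurons, was at 282, 209 and 334 in these 3 libraries and at 4.03 to 79.6 in the other 6. Drd1, of the same marker list, was not high in them, at 411, 278 and 379 against 330 to 585. Nor was Ppp1r1b, at 1503, 949 and 907 against 944 to 1867. The cortical markers Tbr1 and Neurod6 were detected in every library, Tbr1 between 8835 and 11543 and Neurod6 between 19275 and 32658.

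All 42 genes were expressed before birth. Compared per kb of the longest annotated coding transcript, the mean WT level ran from 140 normalized counts per kb for Dlgap2 to 4593 for Camk2b. Camk2b at 4593 ± 513 (SD, n = 3) and the vesicle SNARE Vamp2 at 4336 ± 392 had overlapping libraries and stood at the top of the WT order. They were followed by the membrane SNARE Snap25 at 3591 ± 172. Dlgap4, Cplx2, Syp and Nlgn2 formed the next step, between 2407 and 2701 per kb in WT, with the SDs of neighbours in this order overlapping; Dlgap4 (2701 ± 55.4) and Nlgn2 (2407 ± 91.9), at its ends, did not. The lowest genes per kb were Dlgap2 at 140 ± 5.84 and Homer2 at 164 ± 13.1, a pair of scaffold genes. Homer2 was divided by an annotated transcript of 11 kb, so a shorter form in use would raise its level per kb. On this scale Camk2a, at 269 ± 24.6, was far below Camk2b, and the excitatory transporter Slc17a7 (740 ± 93.5) was above Slc17a6 (497 ± 59.0).

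**Figure D1:**
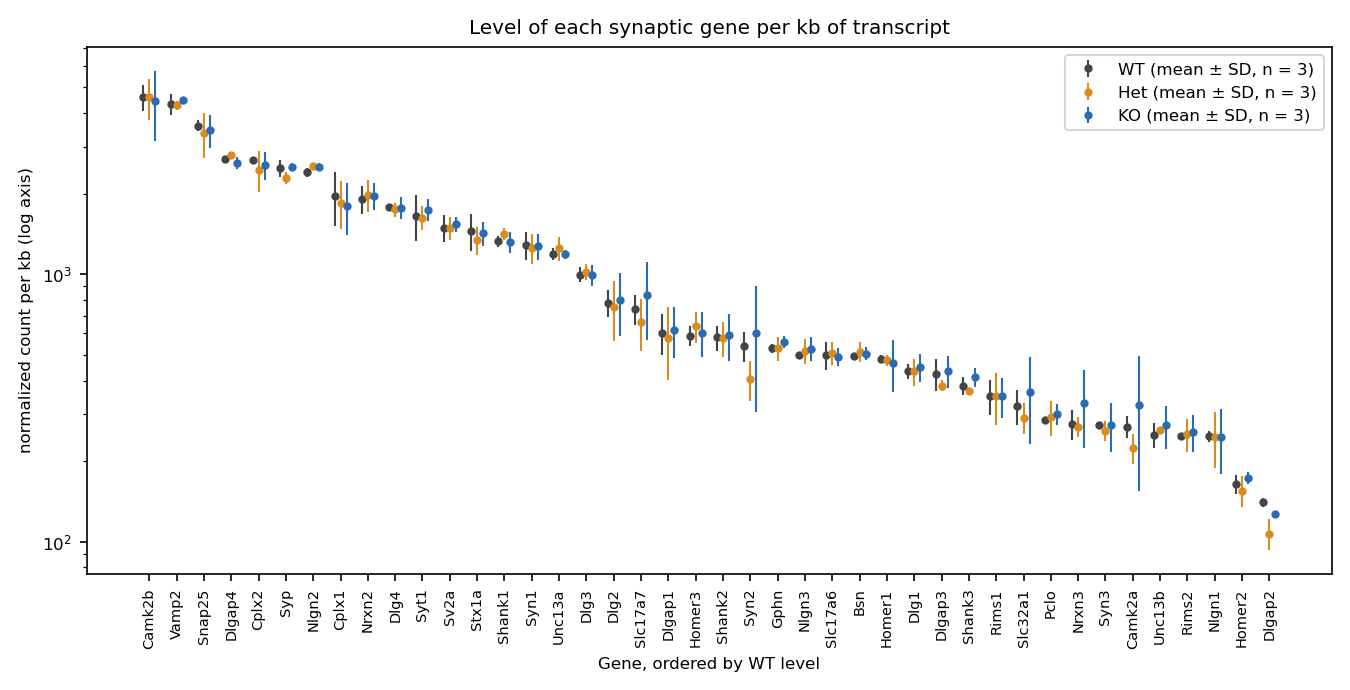
Level of each of the 42 genes in normalized counts per kb of the longest coding transcript (log axis), ordered by WT level; points are genotype means and bars SDs over 3 libraries. Camk2b and Vamp2 stand highest and Dlgap2 lowest in WT, and the widest bars belong to Camk2a, Syn2 and Slc32a1 in KO.

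Among the vesicle genes, the synapsins behaved unlike each other. Syn1, which encodes the synapsin with the highest level per kb of the 3, was at 3703, 4156 and 4694 in WT, 3624, 3967 and 4636 in Het, and 3622, 4290 and 4518 in KO. Syn2 was at 2008, 2373 and 1857 in WT, 1416, 1874 and 1397 in Het, and 2516, 3377 and 1096 in KO. Thus the highest and the lowest Syn2 value of the series both came from KO, and KO covered the whole range of WT and Het. Syn2 varied 3.08-fold over the 9 libraries, against 1.30-fold for Syn1 and 1.5-fold for Syn3. The vesicle membrane proteins were steadier: synaptophysin (Syp) varied 1.22-fold, between 5708 and 6951, and Sv2a, which binds synaptotagmin, 1.24-fold.

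The vesicular transporters define the transmitter of a neuron: Slc17a6 and Slc17a7 load glutamate, and Slc32a1 loads GABA and glycine. Slc17a6 lay between 1776 and 2278 in all 9 libraries. Slc17a7 was at 1853, 2242 and 2379 in WT, 2371, 1895 and 1517 in Het, and 2828, 2971 and 1542 in KO. KO replicates 1 and 2 were the highest libraries of the series, while KO replicate 3 was the second lowest. Slc32a1 had the same order within KO, at 1088, 1322 and 615, against 770 to 1044 in WT and 729 to 934 in Het. Summed levels of 12 interneuron markers were 21568 and 24766 in KO replicates 1 and 2 and 15711 in KO replicate 3. They ran from 17227 to 21526 in WT and from 16556 to 21374 in Het, and none of the 12 was at 0 in any library. Within KO, 10 of the 12 were lowest in replicate 3, Gad1 among them (3085, 3666 and 1302), while Lhx6 (2837, 3180 and 3454) and Npy (1476, 2131 and 3374) were highest there. The part of these cells, or of the striatal markers given above, in the Slc32a1 values was not tested. In bulk tissue, fewer cells of a type and less RNA per cell cannot be told apart.

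The 250 bases before a start that RefSeq lists (GRCm38.p6) are shown for the synapsin pair and the glutamate transporter pair. They were picked because within each pair one gene was steady and the other varied across libraries. For a gene with several listed starts, the start shown has the most annotated coding transcript starts close to it. Capitals mark matches on either strand to RE1, the binding element of the neuronal repressor REST (a pattern of 21 letters, 16 of them fixed, with up to 2 mismatches), to the cAMP element TGACGTCA, to the GC box GGGCGG, to TATAAA and to CCAAT. Overlapping matches run together.
Syn1: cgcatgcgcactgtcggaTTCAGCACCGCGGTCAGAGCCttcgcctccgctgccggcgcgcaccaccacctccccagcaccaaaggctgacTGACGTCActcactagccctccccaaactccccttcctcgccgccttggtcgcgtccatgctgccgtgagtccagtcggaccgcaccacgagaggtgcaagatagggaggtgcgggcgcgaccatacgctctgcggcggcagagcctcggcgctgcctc
Syn2: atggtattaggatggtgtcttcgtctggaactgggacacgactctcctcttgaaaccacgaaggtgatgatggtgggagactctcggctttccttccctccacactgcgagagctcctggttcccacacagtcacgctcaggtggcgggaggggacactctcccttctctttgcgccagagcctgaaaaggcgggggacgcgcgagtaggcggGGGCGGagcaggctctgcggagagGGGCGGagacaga
Slc17a6: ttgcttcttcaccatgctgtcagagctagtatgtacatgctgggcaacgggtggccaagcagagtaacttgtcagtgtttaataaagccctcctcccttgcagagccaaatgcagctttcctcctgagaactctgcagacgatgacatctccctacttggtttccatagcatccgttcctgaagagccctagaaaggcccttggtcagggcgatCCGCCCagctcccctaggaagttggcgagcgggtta
Slc17a7: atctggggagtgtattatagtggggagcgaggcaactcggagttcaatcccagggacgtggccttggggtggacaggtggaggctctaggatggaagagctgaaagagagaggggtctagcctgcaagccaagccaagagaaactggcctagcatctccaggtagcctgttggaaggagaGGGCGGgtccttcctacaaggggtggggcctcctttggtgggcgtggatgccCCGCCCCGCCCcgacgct
The windows are chrX:20920919-20921168 on the minus strand for Syn1, and on the plus strand chr6:115134652-115134901 for Syn2, chr7:51621580-51621829 for Slc17a6 and chr7:45163671-45163920 for Slc17a7. Syn1 holds the RE1 match and the TGACGTCA match in capitals, and the other 3 hold GC boxes. Of the 32 genes of the list with a promoter in the table, Syn1 was the only one with an RE1 match, which 17 of 27025 genes (0.0629%) have in this window. GC boxes were in 20 of the 32 (62.5%), against 32.9% of all genes, and TATAAA in 0 of the 32, against 13% of all genes. CCAAT was in 4 of the 32 (12.5%), against 34.5%, and TGACGTCA in 1 (3.12%), against 1.62%. These shares all used the first listed start of each gene. The median GC content of the 32 was 61.6% at the starts picked as above. Over all genes it was 52.0% at the first listed starts, so the rules differ. GC content bears on how often a GC-rich motif is met. The matches describe these letters only.

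The fusion machinery was strongly expressed. Vamp2 was at 8793, 9392 and 10497 in WT, 9244, 9242 and 9895 in Het, and 9713, 9936 and 10069 in KO, with overlapping groups and KO within the range of WT. Snap25 lay between 6044 and 8666, the other membrane SNARE Stx1a between 2603 and 3676, and the calcium sensor Syt1 between 6862 and 9713. The complexins, which clamp and assist SNARE fusion, differed in pattern. Cplx1 was at 3671, 3815 and 5433 in WT, 3615, 3543 and 5006 in Het, and 3436, 3444 and 4931 in KO, so that replicate 3 was the highest library in each genotype. Cplx2, the more abundant of the pair per kb, was at 13201, 13108 and 13099 in WT, 9984, 12174 and 14207 in Het, and 11724, 14304 and 11783 in KO. Its WT libraries were almost level (SD 56.4) while Het spread over both sides of them (SD 2112).

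The active zone organises the release site. Its large organisers Bsn and Pclo lay between 7466 and 8868 and between 4851 and 6472. The priming factor Unc13a was at 12856, 11605 and 12099 in WT, 11345, 13293 and 13752 in Het, and 11607, 12509 and 12367 in KO, with all groups overlapping. Its paralog Unc13b lay between 3196 and 4588. Rims1, which recruits calcium channels and primes vesicles, was at 1945, 2218 and 2614 in WT, 1841, 2123 and 2811 in Het, and 1838, 2345 and 2585 in KO, again highest in replicate 3 of each genotype. Rims2 ranged from 1032 to 1450. Bsn shares exon sequence on the same strand with another annotated gene, as do Nlgn3 and Dlg2, so reads there may be split.

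Of the adhesion genes, Nlgn2, the neuroligin of inhibitory synapses, had the smallest spread of all 42 genes. It was at 13871, 12858 and 13483 in WT, 13751, 14296 and 14201 in Het, and 13450, 14370 and 14236 in KO. Nlgn1, typical of excitatory synapses, was at 3094, 2883 and 2824 in WT, 2315, 2772 and 3670 in Het, and 2323, 2575 and 3814 in KO. Here Het and KO each held libraries below and above all WT libraries. Nlgn3, found at both kinds of synapse, lay between 4067 and 4990. Nrxn2 ran from 11079 to 15229. Nrxn3 was at 2110, 1927 and 2487 in WT, 2305, 1944 and 2147 in Het, and 2805, 3341 and 1685 in KO, with the same division within KO as Syn2 and Slc17a7.

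In the postsynaptic scaffold, Dlgap2 was the gene whose libraries separated by genotype. It encodes a protein that joins DLG to SHANK, and was at 610, 616 and 659 in WT, 415, 540 and 490 in Het, and 566, 590 and 563 in KO. No library of one genotype overlapped those of another, and the order was WT above KO above Het. Its relatives went otherwise: Dlgap4 lay between 12145 and 13841, Dlgap3 between 1518 and 2089, and Dlgap1 between 3032 and 5537 with replicate 3 highest in every genotype. Dlg4, which encodes PSD-95, ranged from 10156 to 12215, Dlg3 from 4435 to 5474 and Dlg1 from 2335 to 3072. Dlg2, which encodes PSD-93, was at 5360, 6175 and 6781 in WT, 4529, 5638 and 7445 in Het, and 4882, 5758 and 8089 in KO, a wider range than the other DLG genes.

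SHANK proteins form the deeper layer of the scaffold. Shank1 lay between 11980 and 14566 and Shank2 between 4379 and 6461. Shank3 was at 2589, 3010 and 2859 in WT, 2636, 2771 and 2688 in Het, and 2973, 3298 and 2813 in KO. Every KO library lay above every Het library, while WT overlapped both. The HOMER proteins bind SHANK and metabotropic receptors. Homer1 was between 2315 and 3329, Homer2 between 1521 and 2011, and Homer3 between 1259 and 1919. The gene totals do not separate the short, activity-induced form of Homer1 from the long forms. Gephyrin (Gphn), the scaffold of inhibitory synapses, lay between 1733 and 2101.

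CaMKII is the calcium-dependent kinase of the postsynaptic density. Camk2a, its alpha subunit and a gene known to rise after birth in the rodent forebrain, was at 1196, 1385 and 1424 in WT, 1230, 1158 and 949 in Het, and 1919, 2261 and 658 in KO. KO held the 2 highest libraries and the lowest library of the series. Camk2b, the beta subunit, was at 16475, 18363 and 20598 in WT, 15318, 18182 and 21794 in Het, and 13620, 16283 and 23786 in KO. Within KO, replicate 3 was thus the lowest library for Camk2a and the highest for Camk2b, while both subunits were higher in replicate 2 than in replicate 1.

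The comparison of KO with WT asked whether the synaptic genes differ when both copies of Cyfip2 are mutant. It was not balanced for sex: Ddx3y was present in every WT library and at 0 in KO replicates 1 and 2. Cdhr1 was high in those KO libraries and, within WT, in replicate 3 only. The main fit had no term for either feature, so neither is fully separated from genotype. Syn1, Syp, Nlgn3 and Dlg3 lie on chromosome X. None of the 42 passed limma's test at an adjusted p under 0.05, and 0 had an unadjusted p under 0.05. Over all genes 0 were called (0% of 15069), and 1.18% had an unadjusted p under 0.05. Cyfip2 itself was therefore not called either, though its KO and WT libraries did not overlap. The absence of calls thus does not show that the synaptic genes were unchanged. The median log2 fold change over the 42 genes was 0.02, against 0.00 over all genes, with 25 of the 42 above 0, against 48.4% of all genes. Single values ran from -0.13 to 0.21. For 33 of the 42 genes the 95% interval of the log2 fold change lay within 0.5 of 0, as it did for 63.2% of all genes. By group, the median was 0.02 for vesicle genes, -0.04 for the fusion machinery, 0.04 for the active zone, 0.06 for adhesion, 0.02 for scaffolds and 0.01 for CaMKII. Libraries of KO and WT were apart, with no overlap, for 1 of 42 genes, Dlgap2, against 6.46% of all genes. Its log2 fold change was -0.13 ± 0.11 (limma standard error, SE).

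The gene with the smallest p in each group, none passing, is given with its log2 fold change of KO against WT. It was 0.13 ± 0.26 (SE) for Slc17a7, with a 95% interval from -0.45 to 0.71, and 0.05 ± 0.07 for Vamp2. The value was 0.11 ± 0.13 for Unc13b, 0.06 ± 0.05 for Nlgn2, 0.10 ± 0.08 for Shank3 and -0.08 ± 0.20 for Camk2b, each with an adjusted p = 1.00 (limma). The widest intervals belonged to Camk2a, from -0.80 to 0.99 around 0.09, and Syn2, from -0.78 to 0.83 around 0.02. Camk2a, Syn2 and Slc17a7 changed sign when sex read from Y-linked genes was a covariate, to -0.54, -0.38 and -0.33. Their values were -0.13, -0.10 and 0.00 without KO replicate 1, -0.24, -0.32 and -0.04 without KO replicate 2, and 0.65, 0.49 and 0.43 without KO replicate 3, and no setting called them.

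Het against WT addresses the mutation of 1 copy. Here again 0 of 42 genes were called by limma, as over all genes (0%). 1 of 42 had an unadjusted p under 0.05, against 1.61% of all genes. This was Dlgap2, whose mean was 628 ± 26.3 (SD, n = 3) for WT libraries and 482 ± 63.1 for Het libraries. On the log2 scale the difference was -0.39 ± 0.11 (SE), its 95% interval spanned -0.63 to -0.15, and the adjusted p was 1.00 (limma). It was also the 1 gene whose Het and WT libraries did not overlap, against 6.67% of all genes. The median log2 fold change was -0.02 over the 42 genes and -0.01 over all genes, with 14 of the 42 above 0, against 46.2% of all genes. Medians were -0.09 for vesicle genes and -0.09 for the fusion machinery, where all 6 values were below 0. These 6 values share the same libraries. By library, the fusion median against the WT mean was -0.24, -0.12 and 0.13 in Het replicates 1, 2 and 3. Without 1 library at a time the fusion median ran from -0.22 to 0.04. Medians of the other groups were 0.04 for the active zone, 0.05 for adhesion, -0.02 for scaffolds and -0.14 for CaMKII.

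Besides Dlgap2, the genes with the smallest p in their groups were Syp at -0.12 ± 0.07, Cplx2 at -0.13 ± 0.12 and Unc13a at 0.07 ± 0.08. Nlgn2 was at 0.07 ± 0.05 and Camk2a at -0.27 ± 0.39 (log2 ± SE, Het against WT). None passed. The 95% interval lay within 0.5 of 0 for 33 of 42 genes and for 63.3% of all genes. Syn2, with -0.42 and an interval from -1.22 to 0.38, was the widest but for Camk2a, from -1.16 to 0.63.

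KO against Het sets the mutant genotypes beside each other. limma called 0 of 42 genes and 0% of all genes, with a smallest adjusted p of 0.942 in the list. 1 of 42 had an unadjusted p under 0.05, against 3.59% of all genes: Dlgap2, at 482 ± 63.1 in Het and 573 ± 15.0 in KO, with a log2 fold change of 0.26 ± 0.11 (SE). The libraries did not overlap for 3 of 42 genes, against 7.82% of all genes, and all 3 were higher in KO. Apart from Dlgap2 these were Shank3 (log2 0.16 ± 0.08) and Syp (0.14 ± 0.07). The median log2 fold change was 0.05 over the 42 genes and 0.00 over all genes, with 29 of the 42 above 0, against 50.4% of all genes. The 95% interval lay within 0.5 of 0 for 33 of 42 genes and for 61.5% of all genes. The median was 0.10 for vesicle genes, 0.07 for fusion, 0.02 for the active zone, -0.01 for adhesion, 0.05 for scaffolds and 0.15 for CaMKII. The smallest p in the remaining groups belonged to Vamp2 (0.07 ± 0.07), Unc13a (-0.07 ± 0.08), Nrxn3 (0.24 ± 0.22) and Camk2a (0.36 ± 0.39). These last values turned on single KO libraries: Nrxn3 was at 0.03 without KO replicate 2 and 0.53 without KO replicate 3, and Camk2a at 0.02 and 0.91. The 3 comparisons share libraries, so their values are not independent: the Het libraries of Dlgap2 enter both comparisons in which it had an unadjusted p under 0.05.

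**Figure D2:**
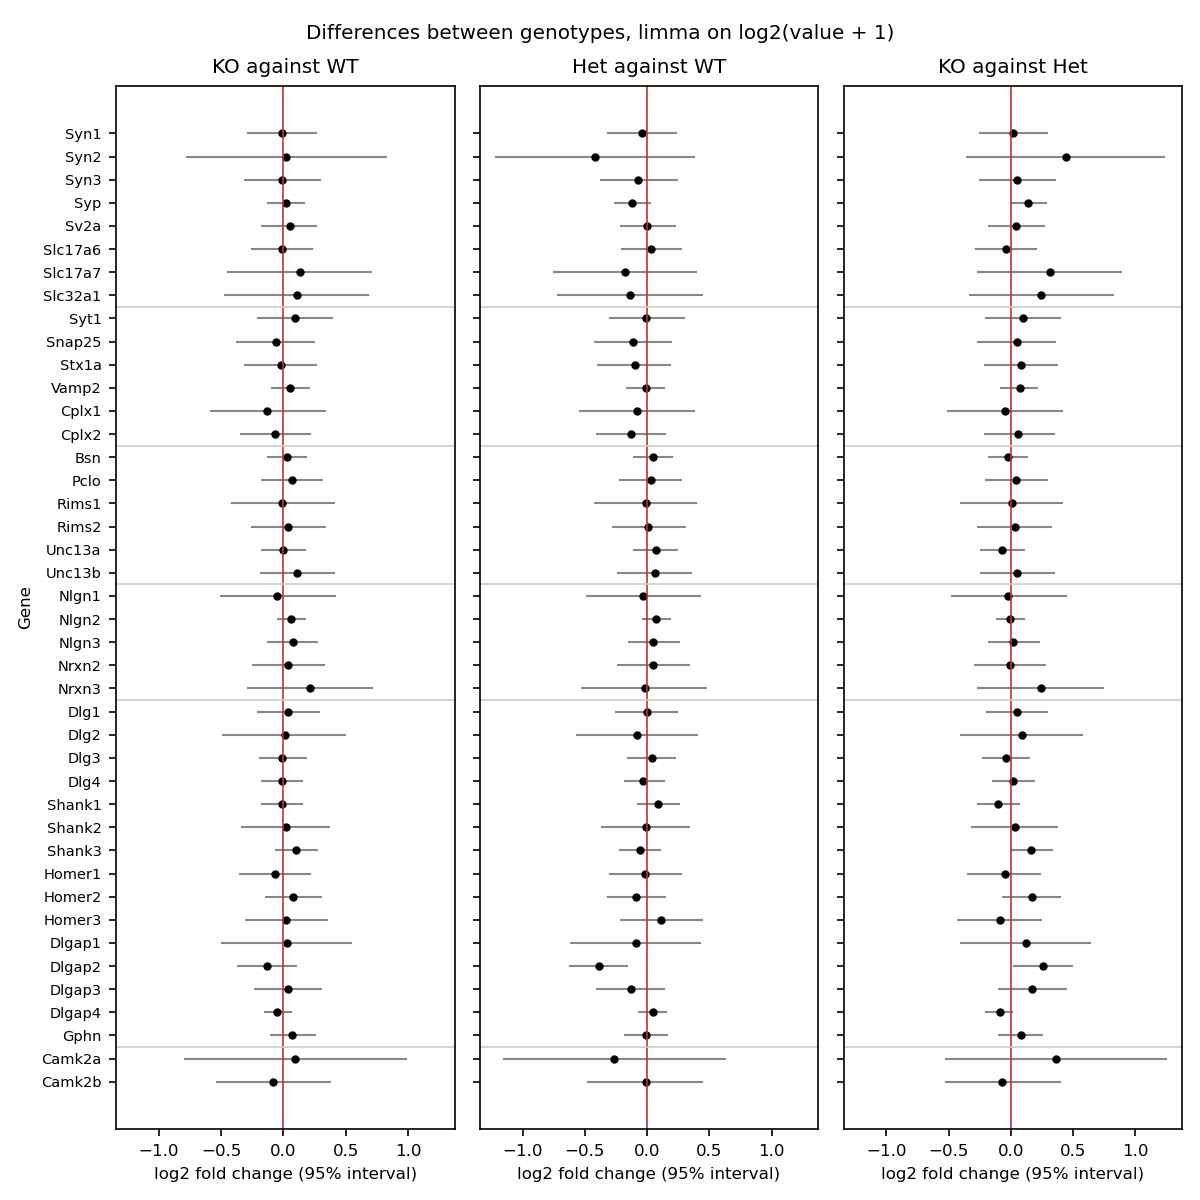
log2 fold change of each gene on the x axis with its 95% interval from limma, for KO against WT, Het against WT and KO against Het; grey lines part the 6 groups of genes and the red line marks 0. Of the 42 intervals per comparison, 33 lie within 0.5 of 0, and only Dlgap2 has intervals that leave out 0, in both comparisons with Het.

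125 other synapse genes were tested beside these, from a list of 126 drawn up for the same 6 groups. limma called 0 of the 125 in each comparison, and an unadjusted p under 0.05 was met by 0 for KO against WT, 1 for Het against WT and 2 for KO against Het. Over all genes the shares were 1.18%, 1.61% and 3.59%, which 0, 1 and 2 of 125 did not exceed. Their median log2 fold changes were 0.00, -0.03 and 0.04. The smallest p for KO against WT belonged to the SNARE gene Snap23 (log2 0.28 ± 0.13) and the priming factor Unc13c (0.49 ± 0.25), which did not pass.

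Neurogranin (Nrgn), which binds calmodulin at the postsynaptic side, had the smallest p of these genes in both comparisons with Het. It was at 546, 711 and 812 in WT, 376, 425 and 524 in Het, and 707, 1350 and 726 in KO. Of the 125 genes, Het and WT libraries did not overlap for 2 higher and 2 lower in Het, against 6.67% of all genes. KO and Het libraries did not for 2 higher and 1 lower in KO, against 7.82% of all genes. Nrgn was counted in both comparisons, since all its Het libraries lay below all others. The log2 fold change was -0.64 ± 0.26 for Het against WT and 1.01 ± 0.26 for KO against Het, with adjusted p-values of 1.00 and 0.942 (limma). The vesicle protein Scamp1 had values of -0.13 ± 0.06 and 0.19 ± 0.06 in the same comparisons and did not pass.

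The SD of log2 values within genotypes was 0.57 for Camk2a, 0.52 for Syn2 and 0.37 for Slc17a7, the 3 highest, which put Camk2a at percentile 90.4 of all genes tested. For these 3 genes it exceeded every log2 difference between genotypes, which reached 0.36, 0.44 and 0.31. It was 0.08 for Syp, 0.05 for Dlgap4 and 0.05 for Nlgn2, the 3 lowest, which put Nlgn2 at percentile 3.15. The median was 0.18 over the 42 genes and 0.15 over all genes.

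**Figure D3:**
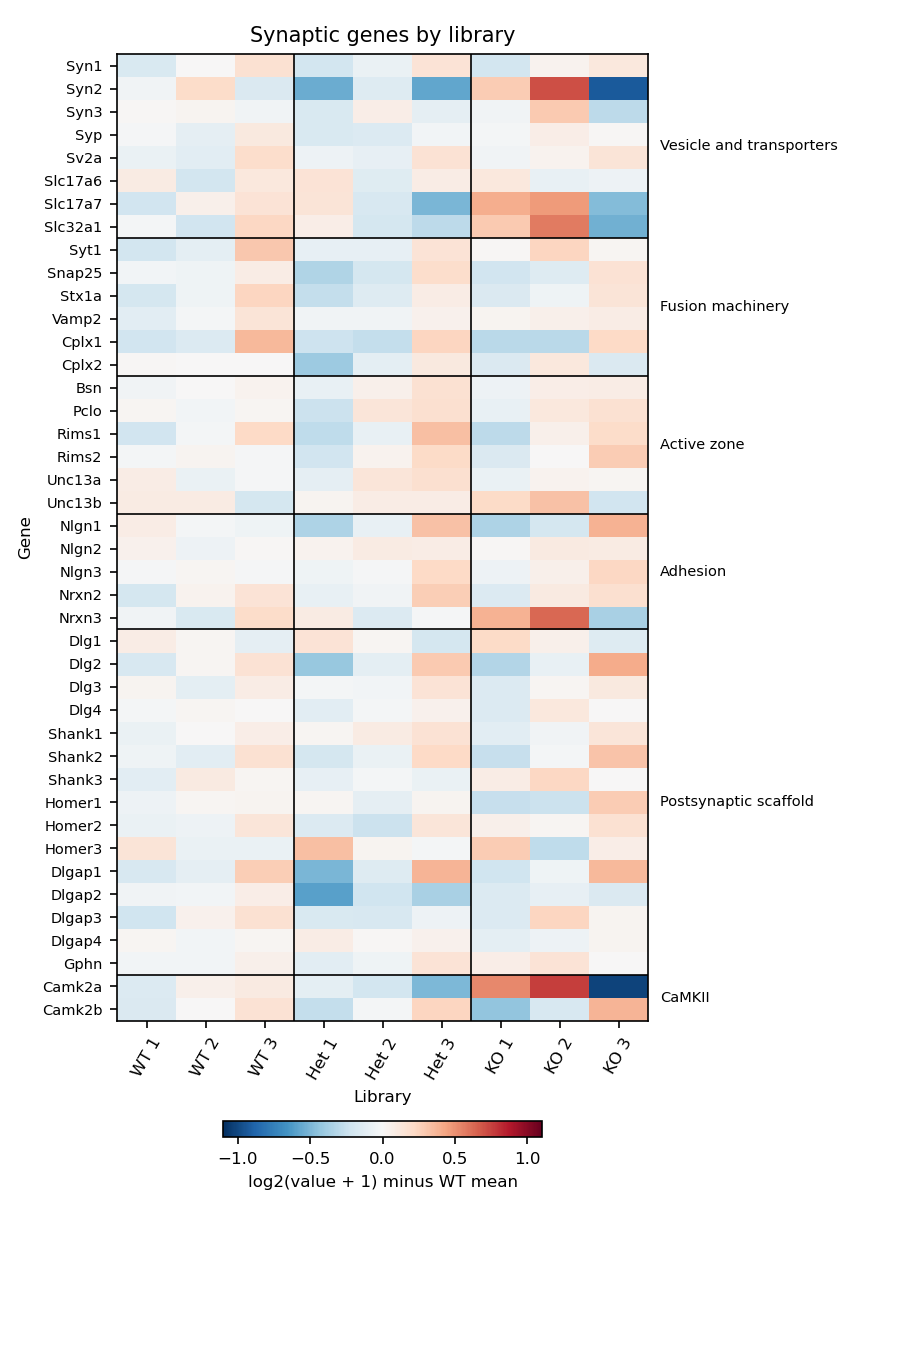
log2(value + 1) of each gene in each library minus the WT mean (colour), with libraries in columns and genes in rows by group. KO replicates 1 and 2 are red and KO replicate 3 is blue for Syn2, Slc17a7, Slc32a1, Nrxn3 and Camk2a, and the reverse holds for Nlgn1, Dlg2, Homer1, Dlgap1 and Camk2b, where KO replicate 2 is near the WT mean for some.

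A difference between KO replicates 1 and 2 and KO replicate 3 was noted after the values were seen. KO replicates 1 and 2 both lay above KO replicate 3 by over 0.3 on the log2 scale for 6 of 42 genes (14.3%), no more often than the 16.6% of all genes. These were Syn2, Slc17a7, Slc32a1, Unc13b, Nrxn3 and Camk2a. Both lay below it by as much for 7 of 42 (16.7%), against 6.60% of all genes, namely Cplx1, Nlgn1, Dlg2, Shank2, Homer1, Dlgap1 and Camk2b. The summed level of all 10 cortical identity markers was 94885 and 95728 in KO replicates 1 and 2 and 131637 in KO replicate 3, and ran from 109634 to 116601 in WT and from 118080 to 127046 in Het, with none at 0. The part of these markers in the result was not tested. The 12 striatal markers summed to 8302, 10815 and 8760 in KO, 6147 to 8333 in WT and 6976 to 10437 in Het, with none at 0; Isl1 was at 4.73 in KO replicate 3. KO replicates 1 and 2 are thus also the KO libraries with high Cdhr1, with high Isl1 and with Ddx3y at 0, so these features cannot be told apart within KO. The 3 libraries of the series with Ddx3y at 0 all lay below the other 6 for 2 of 42 genes, Nlgn1 and Camk2b, against 4.42% of all genes, and all above them for 0 of 42, against 6.15%.

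The same libraries are compared next by ratios of paralogs within a library, which do not depend on the size factors. The pairs were chosen after the values were seen and were not tested. The ratio of Camk2a to Camk2b was 0.0726, 0.0754 and 0.0691 in WT, 0.0803, 0.0637 and 0.0435 in Het, and 0.141, 0.139 and 0.0277 in KO, a 5.10-fold range. The WT libraries were close together, and the KO libraries fell on both sides of all others. Syn2 to Syn1 was 0.542, 0.571 and 0.396 in WT, 0.391, 0.473 and 0.301 in Het, and 0.695, 0.787 and 0.243 in KO. Nrxn3 to Nrxn2 was 0.246 in both KO replicates 1 and 2 and 0.118 in KO replicate 3, against 0.148 to 0.190 in WT. Slc17a7 to Slc17a6 ran from 0.700 in Het replicate 3 to 1.54 in KO replicate 2. Nlgn1 to Nlgn2, in the other direction, was 0.173 and 0.179 in KO replicates 1 and 2 and 0.268 in KO replicate 3. Values per library, not per length, enter these ratios, so they compare libraries and not the abundance of the paralogs.

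**Figure D4:**
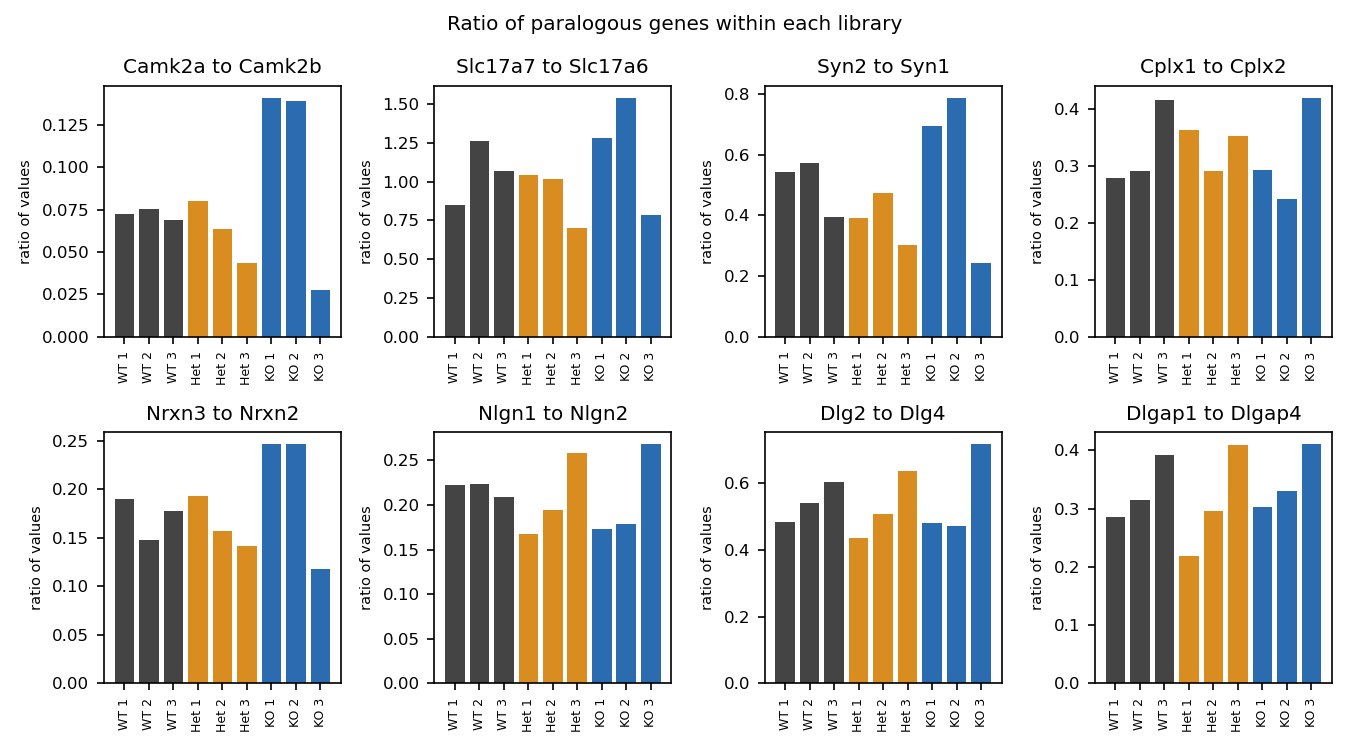
Ratio of 2 paralogous genes within each library, from the normalized counts, as bars from 0 coloured by genotype (grey WT, orange Het, blue KO). For Camk2a to Camk2b, KO replicates 1 and 2 reach 0.141 and 0.139 and KO replicate 3 is at 0.0277, with the WT libraries between.

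A further pattern crossed the genotypes. Replicate 3 was the highest library within each of the 3 genotypes for 18 of 42 genes (42.9%), against 13.7% of all genes, and for 51 of the 125 other synapse genes (40.8%). The 18 were Syn1, Sv2a, Snap25, Stx1a, Vamp2, Cplx1, Bsn, Pclo, Rims1, Nrxn2, Dlg2, Dlg3, Shank1, Shank2, Homer1, Homer2, Dlgap1 and Camk2b, and so came from all 6 groups. Replicate 3 was the lowest in each genotype for Syn2 and Dlg1, 2 of 42 against 12.2% of all genes. The labels do not say that a replicate number marks a litter, day or batch. This count was made after the values were seen and has no test.

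The summed level of 12 progenitor markers went the other way. It was 61522, 59801 and 47968 in WT, 65049, 61195 and 44209 in Het, and 66782, 58279 and 37971 in KO, lowest in replicate 3 of each genotype, and none of the 12 was at 0. Mki67, a marker of dividing cells, was at 4194, 3926 and 3503 in the third replicates of WT, Het and KO, and at 4763 to 6542 in the other libraries. The 12 neuron markers summed to 316867, 320303 and 323195 in WT, 297265, 314847 and 348367 in Het, and 292455, 313582 and 338681 in KO, and none was at 0. The median log2 difference of the 42 genes from the WT mean was 0.08, 0.12 and 0.08 in the third replicates and -0.12 to 0.06 in the other libraries. The part of these cell populations in the synaptic values was not tested. Het replicate 3 was also low in meningeal RNA, with 12 markers summing to 1865 against 18174 to 38286 elsewhere.

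**Figure D5:**
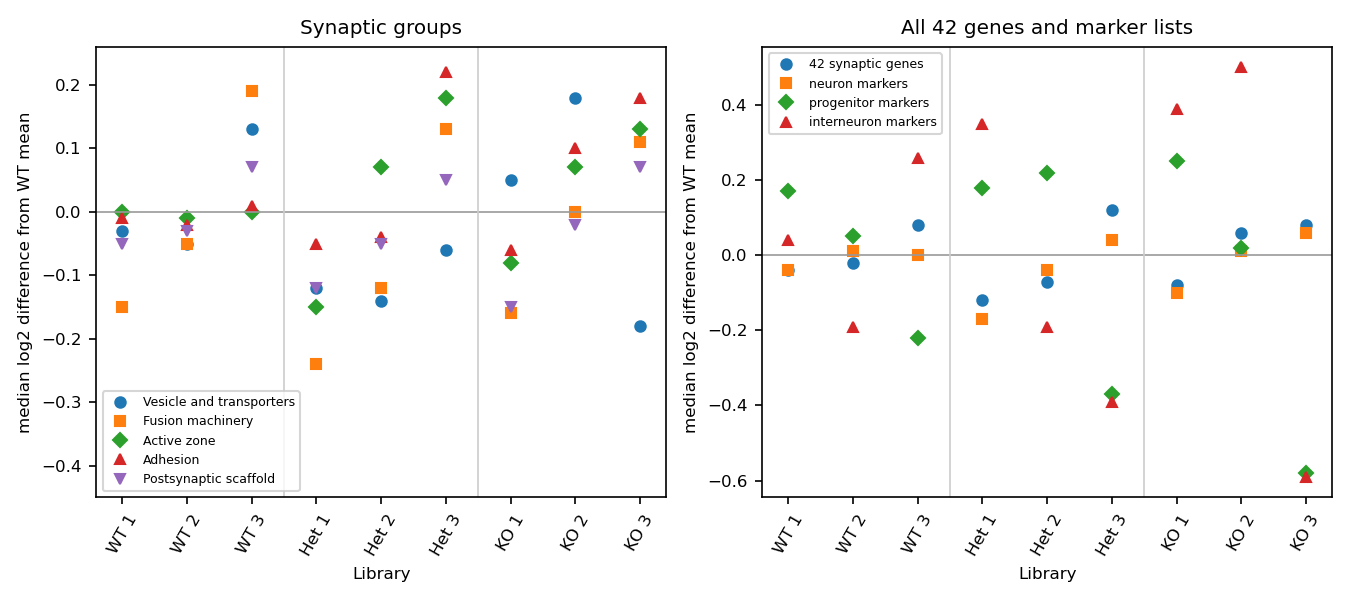
Median log2 difference from the WT mean in each library, for 5 groups of synaptic genes (left; the 2 CaMKII genes are left out) and for all 42 genes with 3 marker lists (right). Progenitor markers are lowest in replicate 3 of each genotype (-0.22, -0.37 and -0.58), where the 42 genes stand at 0.08, 0.12 and 0.08.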

How the data were processed

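Sequencing of 9 cortex libraries, made with a stranded mRNA kit per the labels' protocols, gave the deposited table. Its unit is a signal: each gene's count over the size factor of its library, as the authors deposited it and as the header and near-equal totals show. Salmon 0.11.2, DESeq2 1.19.11, R 3.6.0 and GRCm38 stand in the submitters' processing notes without role or order, and the choice of genes listed is unstated there. Low values fell near multiples of the worth of 1 read for only 60.8% to 78.2% of them per library (tolerance 0.1 of a step), so whole reads were not recovered and no count test was run. Approximate depth is the total over that step.

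Genes with a mean of 10 or more (15069) were analysed as log2(value + 1). The model, in limma 3.58.1 (R 4.3.3), had a mean for each genotype and used all 9 libraries (eBayes with trend, two-sided, Benjamini-Hochberg over all genes tested), after a check on simulated data. Fold changes on this scale understate changes of low genes. A test for whole counts had been planned only if the file held them. Groups and replicate numbers came from the sample titles. The labels give the number no meaning, but deviations of same-numbered Het and KO libraries from their genotype means correlated at 0.453, 0.104 and 0.469, each over 0.1, so these were treated as paired in a blocked fit beside the unblocked one. The 42 genes and all lists were chosen with earlier results of these data known. Fold changes are given for the gene with the smallest p in each group and comparison, for the 3 genes with the widest and the 3 with the narrowest spread, and for the 2 other synapse genes with the smallest p; Dlgap2 and the genes of non-overlapping libraries were named for their values. Symbols matched 18783 of 18820 gene IDs. Positions and transcript lengths came from GENCODE M21 and promoters from RefSeq, both GRCm38. Alternatives varied the pseudocount, the filter on low values, the normalization, the libraries fitted, the eBayes trend and covariates for replicate number, sex and an olfactory bulb score; the closing section gives their effect.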

Additional observations from a re-analysis of the deposited data

How the results depend on the processing

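None of the 42 genes and none of the 125 other synapse genes were called in any comparison under any of the 13 other settings or without any 1 library. The count of all genes called was 1 in place of 0 when the fit held only the compared genotypes (Het against WT, KO against Het), and ran from 0 to 1 over the fits without 1 library in all 3 comparisons. Same-numbered libraries did not pair by the rule (every correlation of deviations over 0.1) for WT with Het (-0.0745, 0.251 and 0.035) or WT with KO (-0.0143, 0.0588 and -0.0256). With the replicate number as a block the counts stayed at 0 in all 3 comparisons and no call changed, also in a block fit to only the compared genotypes, which was added after seeing the data; the adjusted p of Dlgap2 for KO against Het was then 0.55 (limma). A library correlated best with its own number for 3 of 6 libraries of WT and Het, 2 of 6 of WT and KO and 4 of 6 of Het and KO.

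Restricting the fit to the 5 libraries with Cdhr1 under 500 leaves 1 KO library, assumed to vary like the others. The restriction also removes every library with Ddx3y at 0 and with high Isl1, so these features cannot be told apart in it. Median log2 fold changes for KO against WT then became 0.13 over the 42 genes, -0.16 for vesicle genes, 0.18 for fusion, 0.23 for adhesion, 0.11 for scaffolds and -0.26 for CaMKII. The fusion median was 0.08 for Het against WT, and for KO against Het it was -0.09 for vesicle genes and -0.21 for CaMKII. Single values for KO against WT changed sign there to -0.40 for Slc17a7, -0.30 for Unc13b, 0.45 for Camk2b, -0.97 for Camk2a, -0.99 for Syn2 and 0.04 for Dlgap4. For KO against Het they became -0.28 for Nrxn3, -0.67 for Camk2a, -0.56 for Syn2, -0.14 for Slc17a7 and 0.00 for Dlgap4. With sex as a covariate the active zone median was 0.18 for KO against WT, and values changed sign to -0.33 for Slc17a7, -0.03 for Unc13b, 0.27 for Camk2b, -0.54 for Camk2a and -0.38 for Syn2. With the olfactory bulb score they changed to -0.06 for Slc17a7, 0.01 for Camk2b, -0.15 for Camk2a and -0.10 for Syn2. Quantile normalization gave -0.01 for Dlgap4 (Het against WT) and 0.05 for Nlgn2 (KO against Het). Nlgn2 was 0.00 with upper-quartile rescaling and 0.01 with sex as a covariate. The cause of these shifts was not tested.

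Without 1 library at a time, KO against WT ran from -0.04 to 0.43 for Slc17a7, 0.00 to 0.12 for Vamp2, -0.31 to 0.10 for Camk2b, -0.24 to 0.65 for Camk2a, -0.32 to 0.49 for Syn2 and -0.03 to 0.08 for Syp. Het against WT ran from -0.25 to 0.00 for Cplx2. KO against Het ran from -0.03 to 0.02 for Nlgn2, 0.03 to 0.53 for Nrxn3, 0.02 to 0.91 for Camk2a, 0.10 to 0.91 for Syn2, 0.14 to 0.61 for Slc17a7 and 0.15 to 0.34 for Dlgap2, with medians from -0.05 to 0.11 for adhesion and from -0.05 to 0.15 for scaffolds. Of 35 single-gene results, 16 changed sign in at least 1 alternative.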
